A study of Mus musculus with 6 samples.

Results

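Connexins are the proteins of gap junctions, and 7 mouse connexin genes were followed here in uteri with and without Indian hedgehog (Ihh): Gja1, Gja4, Gja5, Gjb1, Gjb2, Gjb5 and Gjc1. They were taken by symbol, through every probe set to which the platform annotation gives exactly 1 of these symbols, which gave 14 probe sets of 45037 and 7 genes of 18193. The controls were 3 Ihhf/f uteri, which carry floxed Ihh alleles and no Cre. The other 3 were Ihhd/d uteri (PRcre/+ Ihhf/f), in which a Cre expressed from the progesterone receptor locus removes Ihh from cells that use that locus. Tissue of both groups came from day -1 of the artificial decidual response (hormone treatment and then a mechanical stimulus to the uterus), and each total RNA sample went on 1 Affymetrix array. The sources used here state neither ages nor the number of mice per sample, so p-values reflect only how these samples vary, and that variation may be technical. The Cre comes with the ablation, and the effects of both cannot be told apart. The source field of the labels names SmoM2 in both groups, against the titles and genotypes, which were used.

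Connexins span the membrane, and their hexamers in neighbouring cells dock into channels that let ions and small metabolites pass from cell to cell. Cell types use different connexins. In the uterus Gja1 is known from the endometrial stroma, where junctional coupling accompanies decidualization, and from the myometrium, Gjb2 and Gjb1 from the epithelium, and Gja4 and Gja5 from vascular endothelium. Gjc1 is known from smooth muscle of vessels and viscera. Gjb5 is best known from skin and trophoblast.

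The single Ihh probe set read 164, 162 and 140 in the controls and 121, 93.3 and 135 in the Ihh-ablated uteri, a log2 difference of -0.43 that did not pass the test (limma adjusted p = 0.164). The labels do not say whether it lies in the deleted part. The Hedgehog targets Gli1 and Ptch1 fell by 2.53 and 1.65 on the log2 scale (limma adjusted p = 0.000492 and 0.00146). Median intensities of the arrays lay between 121.4 and 142.5. Control replicate 2 was the brightest, and its dim probe sets stood above those of the other controls, by a median of 0.24 on the log2 scale between the 25 and 40 percentiles of intensity and by -0.03 above the 80 percentile. Uterine markers were bright in every array: summed intensities lay between 11705 and 17943 for 10 epithelial, between 30842 and 35115 for 10 stromal and between 49828 and 53962 for 8 smooth muscle genes. Ihh-ablated replicate 2 also held pancreatic acinar transcripts (summed intensity 81181 over 9 markers, against 959 to 2980 in the other arrays). Control replicate 3 held skeletal muscle transcripts (14215 over 10 markers, against 5415 and 5695 in the other controls and 2336 to 2932 in the Ihh-ablated uteri). Most of the gap between those other controls and the Ihh-ablated uteri lay in 1 marker, Acta1. It read 4164, 3559 and 5482 in the controls and 1199, 1162 and 1593 in the Ihh-ablated uteri (log2 difference -1.73, limma adjusted p = 0.00208). Adipocyte markers summed to 1734 to 7440 in the controls and 5862 to 15518 in the Ihh-ablated uteri. Results are therefore also given without those 2 arrays where it matters. In whole tissue, fewer cells of a type and less RNA per cell cannot be told apart.

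RefSeq promoter windows (GRCm38.p6, 250 bases before to 50 after the annotated start) were at hand for 6 of the 7 genes. Those below belong to Gja1 and Gjb2, the connexins known best from stroma and epithelium, and to Gja4, Gja5 and Gjb5, whose intensities did not overlap between the groups. They lie at chr10:56377050-56377349 (plus strand), chr14:57104653-57104952 (minus strand), chr4:127313990-127314289 (minus strand), chr3:97032152-97032451 (plus strand) and chr4:127358115-127358414 (minus strand) in that order, written 5′ to 3′ on the gene's own strand. Capitals mark matches to the motifs searched on both strands, which were TGANTCA (AP-1), GGGCGG (GC box) and TGGGTGGTC (GLI).
Gja1: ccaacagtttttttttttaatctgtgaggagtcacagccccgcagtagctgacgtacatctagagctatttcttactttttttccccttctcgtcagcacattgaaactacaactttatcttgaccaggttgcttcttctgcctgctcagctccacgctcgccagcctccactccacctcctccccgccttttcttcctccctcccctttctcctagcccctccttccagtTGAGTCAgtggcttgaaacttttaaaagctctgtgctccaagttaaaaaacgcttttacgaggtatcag
Gjb2: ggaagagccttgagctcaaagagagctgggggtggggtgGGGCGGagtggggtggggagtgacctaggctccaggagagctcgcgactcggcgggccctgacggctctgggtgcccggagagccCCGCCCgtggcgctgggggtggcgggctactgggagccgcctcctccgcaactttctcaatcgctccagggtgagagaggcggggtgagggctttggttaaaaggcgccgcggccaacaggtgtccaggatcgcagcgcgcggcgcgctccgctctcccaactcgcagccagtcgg
Gja4: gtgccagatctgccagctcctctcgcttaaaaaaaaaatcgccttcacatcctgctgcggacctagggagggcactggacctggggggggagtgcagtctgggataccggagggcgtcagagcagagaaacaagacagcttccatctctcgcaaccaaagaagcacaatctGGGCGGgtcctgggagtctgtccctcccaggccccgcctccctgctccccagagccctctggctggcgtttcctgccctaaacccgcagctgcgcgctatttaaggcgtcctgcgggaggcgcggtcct
Gja5: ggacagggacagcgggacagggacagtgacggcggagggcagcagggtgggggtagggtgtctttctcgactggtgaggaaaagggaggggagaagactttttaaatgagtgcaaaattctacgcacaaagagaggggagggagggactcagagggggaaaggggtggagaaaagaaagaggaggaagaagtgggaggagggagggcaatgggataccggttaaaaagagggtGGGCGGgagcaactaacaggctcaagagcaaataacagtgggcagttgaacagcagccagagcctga
Gjb5: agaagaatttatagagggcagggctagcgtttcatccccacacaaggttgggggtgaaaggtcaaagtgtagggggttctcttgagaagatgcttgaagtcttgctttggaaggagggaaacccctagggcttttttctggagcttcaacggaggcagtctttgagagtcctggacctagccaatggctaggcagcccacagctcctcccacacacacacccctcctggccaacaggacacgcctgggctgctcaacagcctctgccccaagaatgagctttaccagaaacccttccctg
The Gja1 window held 1 AP-1 match, TGAGTCA at position -19 from the start, a motif found in 7.81% of 32851 promoter windows of this length. The Gja4 and Gja5 windows held 1 GC box each and the Gjb2 window 2, a motif found in 35.7% of windows. Of the 4 Gjb1 start sites, not printed, 1 held 3 GC boxes. In the Gjb5 window these letters did not occur. The GLI letters occurred in no window of the 6 genes and in 0.253% of all windows. No match overlapped another.

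The comparison of the genotypes asks whether connexin transcripts differ without Ihh on that day. None of the 7 genes passed the test (limma, Benjamini-Hochberg adjusted p under 0.05 over all 33777 tested probe sets), and 0 of 12 tested connexin probe sets did. The background was 2.81% of 15530 genes called (2.14% of probe sets), so 0 of 7 is close to the background. The brightest probe sets ranged from -0.38 for Gja5 to 0.02 for Gjc1 on the log2 scale, with a median of -0.22, against -0.04 over all genes tested. The values were below 0 in 6 of 7 genes, 1 of them Gjb1 at -0.0019, where 56.7% of all genes were below 0. The unadjusted p of limma was under 0.05 for 2 of the 7 (Gja5 and Gjb5), and for 24.2% of all genes. In 3 genes (Gja4, Gja5 and Gjb5) every Ihh-ablated array lay below every control array, a pattern that 19% of all genes show. All 7 genes, by their brightest probe set, and 12 of 14 probe sets passed the filter on dim values. Gja5 passed it only through its controls. All its Ihh-ablated arrays lay below the filter intensity of 71.4 and all its controls above, so its place in these counts is no support for a difference. The 95% intervals of the brightest probe sets allow, taken 1 gene at a time and without adjustment, no level below 0.600 times and none above 1.25 times that of the controls.

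**Figure D1:**
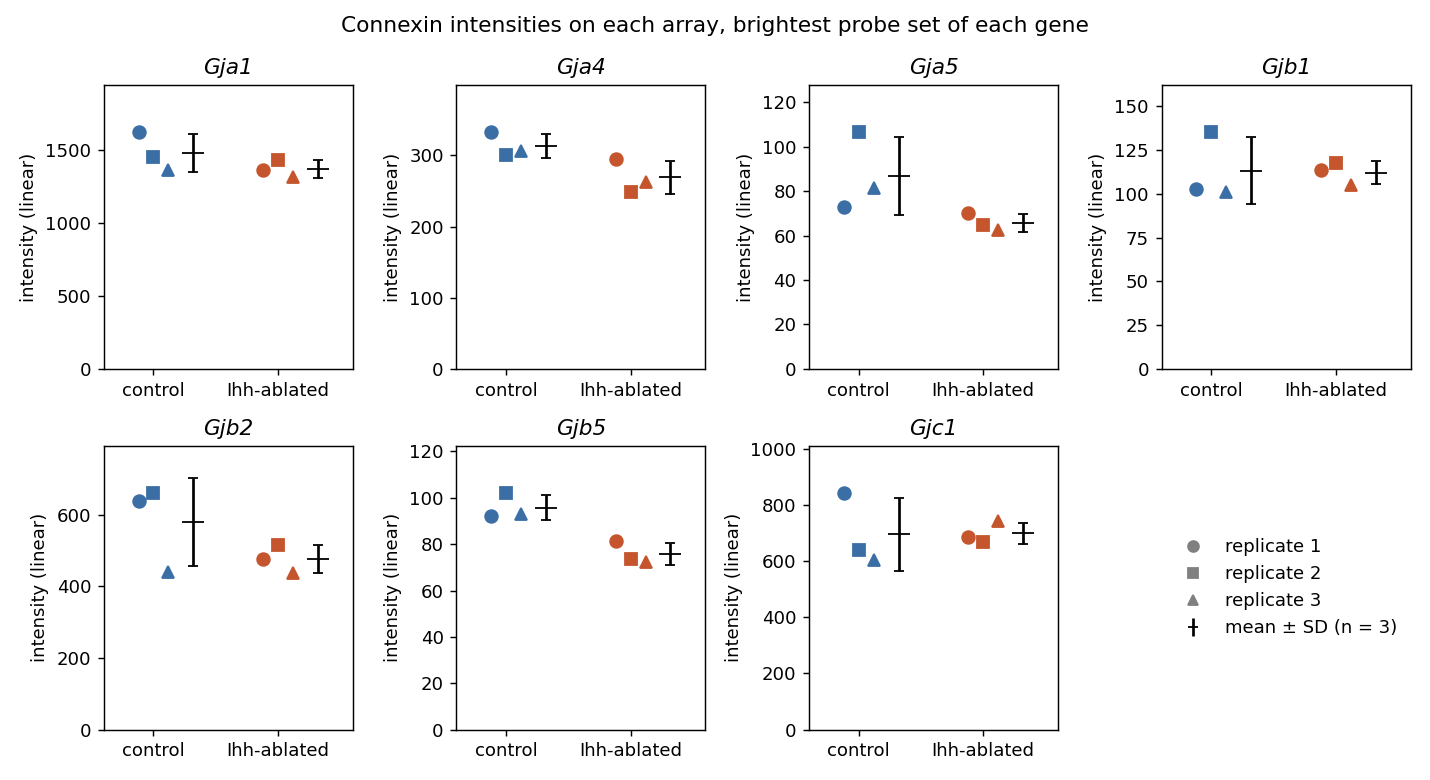
Intensity (linear scale from 0) of the brightest probe set of each connexin gene on each array, with 1 panel per gene, controls in blue and Ihh-ablated uteri in orange, symbols for replicate numbers and black bars for the mean ± SD (n = 3). The groups are apart in Gja4, Gja5 and Gjb5 and overlap in the other 4 genes, and in Gjb2 control replicate 3 lies among the Ihh-ablated arrays.

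Gja1, the connexin of stroma and myometrium, read 1621, 1453 and 1362 in the controls (1479 ± 131, mean ± SD, n = 3) and 1360, 1434 and 1315 in the Ihh-ablated uteri (1370 ± 60.3, n = 3) with its brightest probe set, 1437992_x_at. The highest value was that of control replicate 1, and the other 5 arrays were mixed. The log2 difference was -0.11 (SE 0.08, 95% interval -0.29 to 0.07, limma adjusted p = 0.430), which leaves room for levels between 0.818 and 1.05 times the control. Gja1 is the best covered member, with 6 probe sets. The bright ones 1438650_x_at, 1415800_at and 1438945_x_at, at mean control intensities of 1208, 1126 and 968, differed by -0.07, -0.10 and -0.19. The dimmer 1415801_at (188 in controls) differed by 0.07. The lowest limma adjusted p among these was 0.255, for 1438945_x_at, so no Gja1 probe set gave another answer. The remaining one, 1438973_x_at, read at most 41.8 on any array, below the filter, and differed by -0.01. Names ending in x mark probe sets whose probes may also bind other sequences. When the mean of the adipocyte markers entered the fit as a covariate, the Gja1 difference was 0.0096. It was -0.02 with arrays centred on their medians, -0.04 when control replicate 1 was left out, -0.17 when control replicate 3 was, and -0.20 when both arrays with other-tissue transcripts were, and it passed in none of these. Adipocyte sums ran higher in the Ihh-ablated uteri, so the adipocyte covariate and the genotype cannot be fully told apart. The fit with that covariate called 16 of 15530 genes (0.103%).

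Gjc1, the smooth muscle connexin, read 842, 640 and 603 in the controls (695 ± 129, n = 3) and 684, 669 and 742 in the Ihh-ablated uteri (698 ± 38.5, n = 3). The Ihh-ablated values lay within the range of the controls. The log2 difference was 0.02 (SE 0.13, 95% interval -0.26 to 0.31, limma adjusted p = 0.930). The other Gjc1 probe set, 1447787_x_at, read 358, 318 and 242 in the controls and 302, 296 and 310 in the Ihh-ablated uteri, and differed by 0.0039. In both probe sets control replicate 1 was the highest array and control replicate 3 the lowest. Of 8 smooth muscle markers 1 fell (Actg2, log2 difference -0.25, limma adjusted p = 0.0337) and 0 rose, with a median of 0.0031. Of 10 stromal markers 2 fell (Vim and Thy1) and 1 rose (Dcn), with a median of -0.15. Of all genes 2.81% were called in either direction and 1.28% rose. For Gja1 and Gjc1 the differences were within the spread of the replicates.

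Gjb2, the epithelial connexin, read 639, 661 and 439 in the controls (580 ± 122, n = 3) and 477, 517 and 437 in the Ihh-ablated uteri (477 ± 40.1, n = 3). Control replicates 1 and 2 lay above all Ihh-ablated arrays, and control replicate 3 lay between the lowest and the second of these. The log2 difference was -0.26 (SE 0.16, 95% interval -0.61 to 0.09, limma adjusted p = 0.330) and did not pass. Without control replicate 3, the array with skeletal muscle transcripts, it was -0.45 and passed (limma adjusted p = 0.0323), and 1 connexin of 7 was then called. Without that array and Ihh-ablated replicate 2 it was -0.51 (limma adjusted p = 0.0434). Without any other single array it ranged from -0.15 to -0.32, and with the adipocyte covariate it was -0.04 (limma adjusted p = 0.934). So the Gjb2 call rests on whether control replicate 3 is included. Fits without that array called more genes in general, 1890 of 15530 (12.2%) against 437 with all arrays. The fit with the adipocyte covariate, which is partly aligned with genotype, called 16. General epithelial markers did not go the same way: of 10, 0 passed, 8 had values above 0, and the median was 0.26. Of all genes 2.81% passed and 56.7% were below 0. The part of the epithelial cells, and that of the skeletal muscle transcripts, in the Gjb2 values was not tested.

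Gjb1, the other epithelial connexin and one that acinar cells of the pancreas also use, read 103, 135 and 101 in the controls (113 ± 19.1, n = 3) and 114, 118 and 105 in the Ihh-ablated uteri (112 ± 6.39, n = 3). Control replicate 2 was the highest and the others lay close together. The log2 difference was -0.0019 (SE 0.14, 95% interval -0.33 to 0.32, limma adjusted p = 0.995). Its sign was not stable: it was 0.10 when arrays were quantile normalized, 0.09 when they were centred on their medians, 0.0025 when the adipocyte mean was a covariate, 0.13 without control replicate 2 and 0.04 when Ihh-ablated replicate 3 was left out. Ihh-ablated replicate 2, which carried the pancreatic transcripts, read 118, within the range of the controls. The dimmer probe set 1448766_at, under the filter, read 48.1, 76.6 and 58.3 in the controls and 63.1, 64.3 and 60.8 in the Ihh-ablated uteri.

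Gjb5, the connexin of skin and trophoblast, read 92.2, 102 and 93.2 in the controls (95.8 ± 5.44, n = 3) and 81.4, 73.7 and 72.3 in the Ihh-ablated uteri (75.8 ± 4.86, n = 3). The groups did not overlap and were each tight. The log2 difference was -0.34 (SE 0.12, 95% interval -0.61 to -0.07, a level of 0.791 times the control), and it had the lowest adjusted p of the 7 genes without passing (limma adjusted p = 0.153). It kept its sign in every alternative run, between -0.23 and -0.39, and passed in none. This probe set is dim, at the 32.5 percentile of all probe sets, and whether it lay above background is not known. Probe sets between the 25 and 40 percentiles had a median difference of -0.13 of their own, against 0.03 above the 80 percentile. The part of that general shift in the Gjb5 value was not tested. With median-centred arrays the Gjb5 difference was -0.25.

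Gja4, an endothelial connexin, read 333, 301 and 306 in the controls (313 ± 17.1, n = 3) and 295, 249 and 263 in the Ihh-ablated uteri (269 ± 23.4, n = 3). The groups did not overlap, though control replicate 2 and Ihh-ablated replicate 1 were separated by little. The log2 difference was -0.22 (SE 0.11, 95% interval -0.47 to 0.02, limma adjusted p = 0.257), a level of 0.858 times the control. It lay between -0.12 and -0.29 in the alternatives, with the smallest size under the adipocyte covariate.

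Gja5, the connexin of arterial endothelium, read 72.7, 107 and 81.3 in the controls (86.8 ± 17.6, n = 3) and 70.3, 64.9 and 62.4 in the Ihh-ablated uteri (65.9 ± 4.05, n = 3). Control replicate 1 was only slightly above the highest Ihh-ablated array, and control replicate 2 stood far above all. The filter on dim values, at an intensity of 71.4, fell between the groups, so Gja5 was tested only because its controls were higher. The log2 difference of -0.38 was the largest in size of the 7 (SE 0.16, 95% interval -0.74 to -0.03) and did not pass (limma adjusted p = 0.196). Without control replicate 2 it was -0.22 (limma adjusted p = 0.328), and without control replicate 1 it was -0.50 (limma adjusted p = 0.188). The probe set is dim, at the 27.2 percentile of intensity, in the range where control replicate 2 read high, and no detection calls were used, so whether it lay above background is not known. Endothelial markers did not share one direction: of 13, 1 fell (Cdh5, the junctional cadherin of endothelium, log2 -0.57, limma adjusted p = 0.0275), 0 rose, and the median was 0.06. Differences ranged from -1.02 for Dll4 to 0.63 for Vwf, each without overlap and neither passing (limma adjusted p = 0.0818 and 0.0730). They were below 0 in 4 of the 13, where 56.7% of all genes were below 0 and 2.81% were called. Summed endothelial intensities lay between 9981 and 10698 in the controls and between 9189 and 11126 in the Ihh-ablated uteri. Their part in the Gja4 and Gja5 values was not tested.

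**Figure D2:**
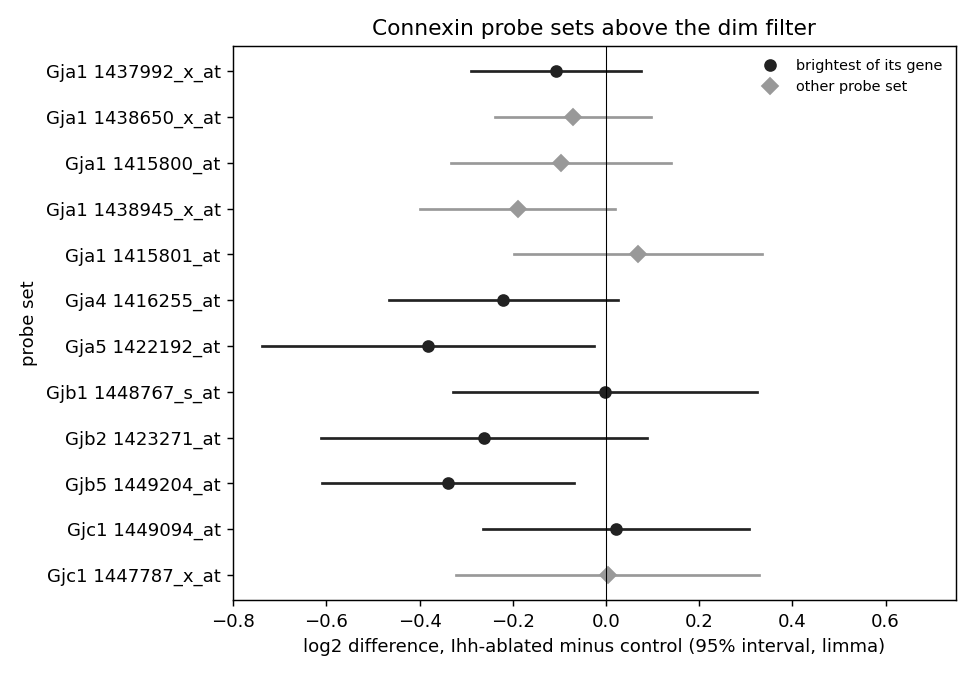
Log2 difference (Ihh-ablated minus control) of the 12 connexin probe sets above the dim filter, with points for the limma estimate and lines for its unadjusted 95% interval, black circles for the brightest probe set of a gene and grey diamonds for the others. Only the intervals of Gja5 and Gjb5 lie wholly below 0, and neither gene passed after adjustment over all probe sets.

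The spread of the replicates limits these comparisons. Control arrays varied more than Ihh-ablated arrays (SD of log2) in 9 of 12 connexin probe sets, as in 75.3% of all tested probe sets. By the brightest probe sets, leaving out each array in turn turned the sign only in genes whose difference was near 0, Gjb1 and Gjc1. Gja1, Gja4, Gja5, Gjb2 and Gjb5 remained below 0. Other Gja1 probe sets were less stable: 1415800_at turned to 0.02 without control replicate 1. The dimmer 1415801_at, above 0 with all arrays, turned to -0.02 without control replicate 3.

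**Figure D3:**
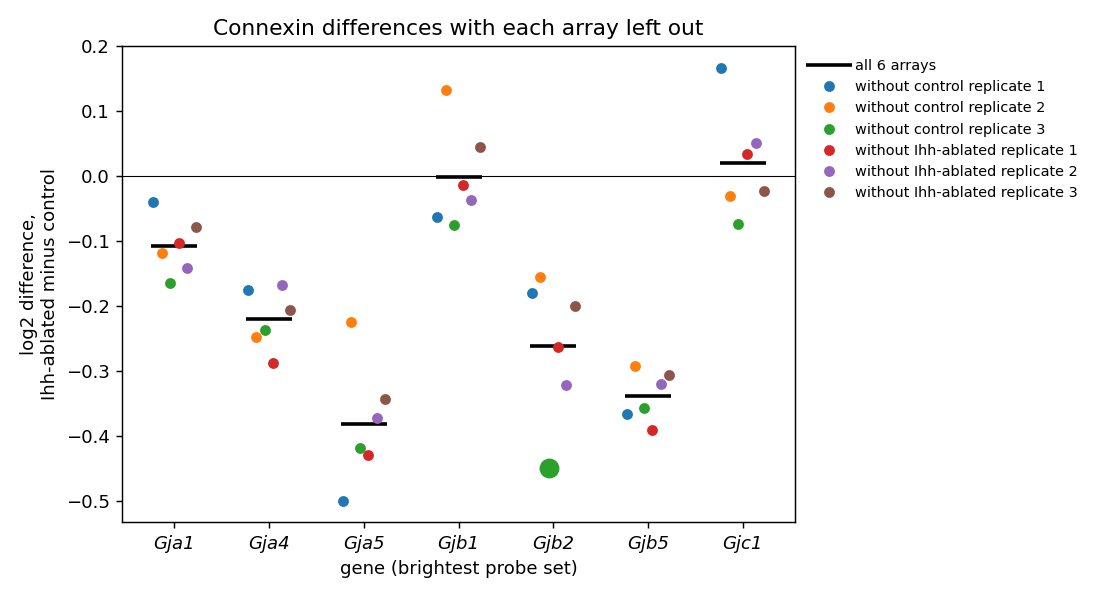
Log2 difference of each connexin gene (brightest probe set) with all 6 arrays (black line) and without each array in turn (coloured points), where a large point passed at a limma adjusted p under 0.05. The single large point is Gjb2 without control replicate 3, at -0.45, and the values of Gjb1 and Gjc1 lie on both sides of 0.

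Of 7 further connexins with a probe set of 1 symbol, 4 passed the dim filter, of which 0 were called, with a median of -0.13. The unadjusted limma p was under 0.05 for 1 of the 4, and for 24.2% of all genes. Gja3, a lens connexin, read 86.5, 129 and 86.6 in the controls and 81.9, 68.2 and 68.0 in the Ihh-ablated uteri, a difference of -0.45 (limma adjusted p = 0.183), with control replicate 2 high as in Gja5. Gjb6, a connexin of skin and inner ear, differed by 0.27 (limma adjusted p = 0.512) and Gjc3, a glial connexin, by -0.18 (limma adjusted p = 0.522). Pannexins form channels of a related shape that open to the outside of the cell. Among the 3 pannexins 0 were called and 1 had an unadjusted limma p under 0.05, beside the same 24.2% of all genes. That was Panx1, which read 230, 221 and 207 in the controls and 184, 179 and 175 in the Ihh-ablated uteri. The difference was -0.29 (limma adjusted p = 0.163). Its groups did not overlap, which 19% of all genes show in that direction. Panx3 differed by -0.20 and Panx2 by -0.16.

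Proteins that anchor gap junctions, or phosphorylate, ubiquitinate and sort connexins, are a further list, of which 26 of 30 were measured and tested. Of these 0 passed, 8 had an unadjusted limma p under 0.05, where 24.2% of all genes do, and the median was 0.06. Tjp1, the scaffold that binds the tail of the Gja1 protein, read 1597, 1604 and 1674 in the controls and 1800, 1827 and 1892 in the Ihh-ablated uteri. The groups did not overlap, but the difference of 0.18 did not pass (limma adjusted p = 0.141). Nedd4, a ubiquitin ligase of the Gja1 protein, differed by 0.14 and Cdh2, an adherens junction cadherin, by 0.47 (limma adjusted p = 0.163 and 0.181). Without control replicate 3, 2 genes of this list were called, Dbn1 and Prkca, and with Ihh-ablated replicate 2 also left out 2 were, Cdh1 and Dbn1. Over all genes those fits called 12.2% and 7.12%, so 2 of 26 is below or near the background. Dbn1, drebrin, which links Gja1 channels to actin, read 1449, 1880 and 902 in the controls and 979, 912 and 942 in the Ihh-ablated uteri. As for Gjb2, control replicate 3 lay at the Ihh-ablated level. Dbn1 is named for that call, after its values were seen.

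Transcription factors known to act on connexin genes were also listed: 2 of 12 rose, 0 fell, 10 did not pass, and the median was 0.23. Over all genes 1.28% rose. Fos, a subunit of the factor AP-1, read 255, 374 and 458 in the controls and 946, 656 and 669 in the Ihh-ablated uteri, a rise of 1.08 (limma adjusted p = 0.0382). Jun, its partner, read 841, 773 and 776 in the controls and 1135, 1053 and 1171 in the Ihh-ablated uteri, a rise of 0.49 (limma adjusted p = 0.0176). In both the groups were well apart. The Fos call was lost without each array but control replicate 3 (limma adjusted p from 0.0600 to 0.125), and the Jun call without control replicates 1 and 2 and Ihh-ablated replicates 1 and 3 (0.0535 to 0.0938). The number of risen regulators was 4 when control replicate 3 was left out, and it was 1 when Ihh-ablated replicate 2 was and 0 when any of the other 4 arrays was. Calls over all genes moved with them, from 2.81% with all arrays to 12.2% when control replicate 3 was left out and 1.48% when Ihh-ablated replicate 2 was. Gja1, whose promoter window above holds the AP-1 letters, differed by -0.11 on the same arrays. Whether Fos and Jun act on Gja1 here was not tested.

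**Figure D4:**
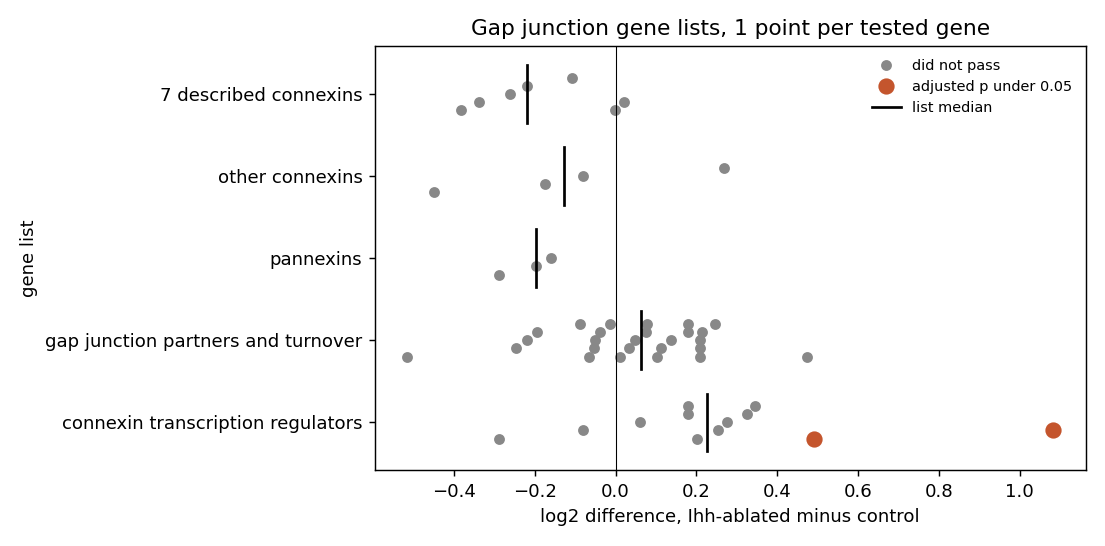
Log2 difference (Ihh-ablated minus control) of each tested gene in 5 gap junction lists, 1 point per gene (small vertical offsets only separate points), with black bars for list medians and large orange points for genes at a limma adjusted p under 0.05. The only passing points are Jun and Fos among the transcription regulators, at 0.49 and 1.08.

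Likeness across the 6 arrays was measured as the root-mean-square difference of log2 values after each gene was centred on its mean, against 15519 other genes. Closest to Gja1 were Apex1, a DNA repair endonuclease (0.019), Pbdc1 (0.025) and Cct8, a chaperonin subunit (0.025), where the median of all genes was 0.188. Closest to Gjb2 were Ccdc38 (0.048), Ttf1, a transcription termination factor (0.059), and Anxa8, an annexin (0.063), with a median of 0.261. Anxa8 read 169, 189 and 114 in the controls and 120, 137 and 121 in the Ihh-ablated uteri. Ttf1 read 645, 657 and 435 in the controls and 453, 467 and 443 in the Ihh-ablated uteri. Both have the Gjb2 pattern of 2 high controls and control replicate 3 at the Ihh-ablated level. They were picked for likeness to Gjb2 on these same arrays, so the shared pattern follows from that choice. The closest of so many genes also lie far below the median for any gene.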

How the data were processed

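The deposited table holds linear intensities, 1 per probe set, that the authors had processed, for 3 control and 3 Ihh-ablated arrays. The labels' protocols describe biotinylated cRNA. For the summarising software, background correction and normalization: not given in the sources used here. Groups and replicate numbers came from the sample titles.

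After removal of 64 control probe sets, 34945 of 45037 had 1 symbol, 932 several and 9160 none, which stayed unnamed. Intensities were floored at 16, log2 was taken, the authors' scaling was kept (array medians differed by 0.23), and the dimmest 25% of probe sets (mean log2 under 6.16) were left out. limma 3.58.1 in R 4.3.3 fitted genotype with an intensity trend, with Benjamini-Hochberg adjustment over 33777 probe sets, and the fit was tested on simulated data. The brightest probe set stood for a gene. Means ± SD are of linear intensities, and differences are Ihh-ablated minus control. 3 arrays per group limit the precision.

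The members, lists and alternatives were chosen with earlier results of these data known. Named were all members, Ihh, Gli1 and Ptch1, and the 3 genes closest to Gja1 and to Gjb2. From the gap junction lists came called genes or the 3 of lowest p. Dbn1, Prkca and Cdh1 were named for calls without some arrays. Called markers were named too, with Dll4 and Vwf as the ends of their list. Of the marker lists, hepatocyte genes had 0 calls among 5. Alternatives changed scaling, floor, filter, variance model, arrays, replicate block, probe set summary and an adipocyte covariate. Figures used matplotlib 3.10.9 in Python 3.11.15.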

Additional observations from a re-analysis of the deposited data

How the results depend on the processing

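No connexin gene was called in 16 of 18 alternatives, and 1 (Gjb2) was in the other 2: without control replicate 3 and Ihh-ablated replicate 2 together, and without control replicate 3 alone (0 to 1 over the fits that leave out 1 array). Gja4, Gja5, Gjb2 and Gjb5 kept their direction in every alternative that gave a value. Gja1 turned to 0.0096 with the adipocyte covariate. Gjb1 turned to 0.0957 by quantile normalization, 0.0892 when arrays were centred on their medians and 0.0025 with that covariate, and ranged from -0.0750 to 0.133 as arrays were left out. Gjc1 turned to -0.0129 by quantile normalization and -0.0438 without the 2 arrays just named, and ranged from -0.0743 to 0.167 as arrays were left out. Fos lost its call in 9 of 18 alternatives and Jun in 6, all in the same direction. With the lowest 50% left out, Gja5, Gjb1 and Gjb5 were not tested. The cause of these changes was not tested. With the replicate number as a block 0 connexins were called, while the calls over all genes were 922 against 437. The labels do not say that equal numbers are pairs, so the numbers were not taken as pairs. Deviations of same-numbered samples correlated at -0.15, -0.04 and 0.25 across probe sets, and samples did not each correlate best with their own number. With 3 samples per group that check cannot exclude pairing. Calls over all genes were 308 without the filter, 266 when arrays were centred on their medians, 226 without a trend and 16 with the adipocyte covariate, and 111 to 1890 as arrays were left out. No detection calls were used, so dim probe sets have no stated background.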
